A study of Mus musculus with 4 samples.

Results

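Notch signalling passes between cells that touch. A ligand of the Delta-like or Jagged family on the sending cell binds a Notch receptor on its neighbour, the receptor is cut within the membrane, and the released intracellular part enters the nucleus and joins the DNA-binding protein RBPJ to switch on repressors of the Hes and Hey families. In the cortex the pathway is known for keeping radial glia and other progenitors from becoming neurons, for favouring astrocyte fates, and for arterial and mural cell differentiation in vessels.

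The genes described here are 8 members of this pathway chosen by name, out of 29281 genes listed in any of the files: the receptors Notch1, Notch2 and Notch3, the ligands Dll1 and Jag1, and the targets Hes1, Hes5 and Hey1. All 8 are listed in all 4 libraries. They were followed in the prefrontal cortex (PFC) of c57bl/6 mice at 4 ages, P1, P4, P10 and adulthood (P84), using single-cell RNA sequencing on the BD Rhapsody system, in which beads tag each cell and each captured mRNA molecule at its 3′ end (a unique molecular identifier, UMI). The mice carried no transgene or treatment that the labels or methods name, and the methods state that they were female and that 2 were used per age, and which cell came from which mouse is not used here. With 1 library standing for each age, differences between ages lack replicates and are given with no p-value. The question addressed is which cells carried the ligands, which carried the receptors and targets, and how their levels stood at each age.

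The median depth of the filtered cells was 25800, 12047, 18057 and 11065 UMIs in age order. The P1 library stands apart in processing, since the headers of the deposited counts name a later version of the BD Rhapsody pipeline for it than for the others. The methods give a single version for all ages. The P1 library also held 120 CPM (UMIs scaled to a common library total, defined below) of 4 Y-linked genes against 0.126 to 0.190 in the others, although the methods describe females. Values at P1 are therefore given beside the other ages, and folds between ages start at P4. Pairs of libraries shared 12 to 368 cell labels. Cells were grouped by clustering without the Notch pathway genes and named from marker lists, and every name below means a cluster with that marker profile. Summed astrocyte markers in astrocyte-like cells were 7515, 11291, 30299 and 37716 CPM in age order, and none of the 8 markers was at 0. At P1 this cluster was also led by Hopx, Sfrp1 and Tnc, genes known from radial glia.

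A limit applies to each comparison of P4 with adult in astrocyte-like cells. Scrublet, which marks likely doublets (barcodes holding 2 cells), marked 22.0% of the P4 astrocyte-like cells, and these held 45.6% of the UMIs of the cluster, against 14.3% of the cells at P1, 0.347% at P10 and 0.991% in adult. Summed excitatory neuron markers in the P4 cluster were 1102 CPM with these cells and 437 CPM without them. The levels of the members in astrocyte-like cells, their ratios of adult over P4 and the counts of the pathway genes are therefore also given without the marked cells, an alternative that for the pathway genes and the shares of cells was added after seeing the data.

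Levels are CPM, the UMIs of a gene summed over the cells of a class and scaled to the usual common total, with genes of mitochondria and ribosomal proteins left out of that total. Brackets give exact 95% intervals, from the Poisson distribution for CPM, from the conditional binomial for log2 ratios of CPM and by the Clopper-Pearson method for shares of cells. They cover counting error only. Counts come from transcript 3′ ends, so levels were compared for 1 gene across cells and not between genes.

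On GRCm38, with the GENCODE M21 annotation, the receptors lie on chromosome 2 (Notch1, 26457903 to 26516663, minus strand), chromosome 3 (Notch2, 98013527 to 98150361, plus strand) and chromosome 17 (Notch3, 32120820 to 32166852, minus strand). The ligand Dll1 is on chromosome 17 (15367354 to 15376872, minus strand) and Jag1 on chromosome 2 (137081456 to 137116644, minus strand). Hes1 is on chromosome 16 (30064384 to 30067796, plus strand), Hes5 on chromosome 4 (154960923 to 154962371, plus strand) and Hey1 on chromosome 3 (8663359 to 8667256, minus strand). Notch3 overlaps Gm17276 on the other strand, with 1423, 173, 141 and 86 UMIs in age order against 2089, 2188, 2357 and 1476 for Notch3. Dll1 overlaps A930024N18Rik on the other strand, with 756, 740, 443 and 187 UMIs against 3606, 1907, 869 and 381. Also on the other strand, Hes5 overlaps Gm20421 and Notch1 overlaps 0610009E02Rik and Gm13568, for which no UMIs are listed. Whether counting used strand is not given in the sources used here, so reads of these pairs cannot be told apart.

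The sequence shown is the 250 bases before the start of Hes5, because it was the only one of the members with a promoter in the RefSeq table (6 genes, 7 promoters) to hold the core letters to which RBPJ binds. It is taken from RefSeq GRCm38.p6, chr4:154960673-154960922, plus strand, and the capitals mark TGGGAA on the coding strand and its reverse complement TTCCCA.

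Hes5 upstream: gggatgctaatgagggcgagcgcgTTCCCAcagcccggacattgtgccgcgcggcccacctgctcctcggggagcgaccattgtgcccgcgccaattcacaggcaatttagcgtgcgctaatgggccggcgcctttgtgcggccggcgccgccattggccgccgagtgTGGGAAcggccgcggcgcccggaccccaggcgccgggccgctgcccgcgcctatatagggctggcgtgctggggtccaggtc

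The motif lies 82 to 77 bases before the start on the coding strand and 226 to 221 bases before it on the opposite strand. Of all 32851 promoters in the table, 21.6% hold it on either strand within the same 250 bases. A match is a run of letters and not evidence of binding. Hes1 and Hey1 were not in the table.

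**Figure D1:**
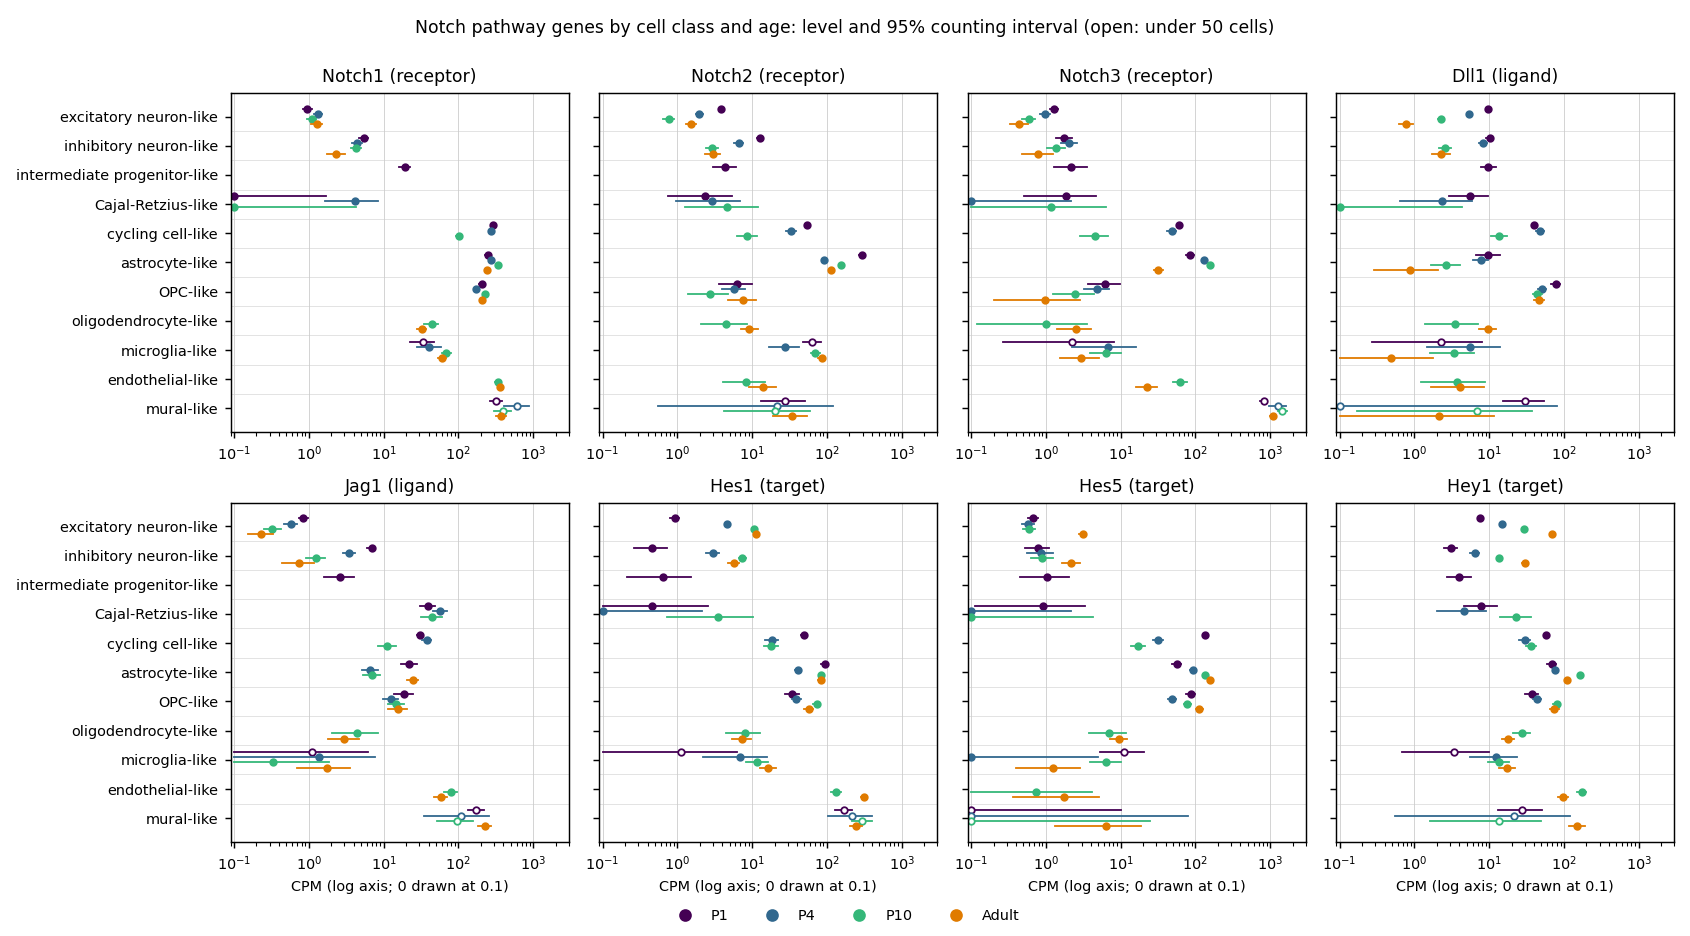
Level of each gene (CPM, log axis, values of 0 drawn at 0.1) in each cell class, with colours for the 4 ages and lines for the 95% counting interval; open points are classes of fewer than 50 cells. Notch1 sat far to the right in astrocyte-like, OPC-like, cycling, endothelial-like and mural-like cells and far to the left in neurons. Notch2, Notch3 and Hes5 did so in some of these classes only. Notch2 and Notch3 were low in OPC-like cells, and Hes5 was low in endothelial-like cells. Hey1 in excitatory and inhibitory neuron-like cells lay further right at each later age.

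Among the receptors, Notch1, the one best known from cortical progenitors, was above 100 CPM in the astrocyte-like, OPC-like, cycling, endothelial-like and mural-like classes at each age at which they were named. In astrocyte-like cells it was 245 CPM [228, 264] at P1, 270 CPM [260, 281] at P4, 344 CPM [332, 357] at P10 and 244 CPM [231, 257] in adult. Without Scrublet-marked cells the same levels were 293, 409, 346 and 252 CPM, so that P4 was then the highest age. In cells like oligodendrocyte precursor cells (OPC) Notch1 was 207 CPM [191, 225] at P1, 172 CPM [161, 183] at P4, 230 CPM [216, 244] at P10 and 208 CPM [192, 225] in adult. P4 was the lowest age, and without marked cells they were 233, 237, 231 and 277 CPM, with adult the highest.

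Cycling cells carried Notch1 at 287 CPM [278, 296] at P1 and 274 CPM [259, 288] at P4, and at 103 CPM [94.1, 112] at P10. At P10, 29.3% of the cycling-like cells were Scrublet-marked, with 58.7% of the UMIs of the class, and at P4 16.8% with 36.4%. Without them Notch1 was 323, 359 and 182 CPM at P1, P4 and P10. Summed excitatory neuron markers were then still 1101 CPM at P10, against 329 CPM at P1 and 371 CPM at P4. This limit applies to every P10 level of cycling cells given below. In endothelial-like cells, named as such only at P10 and in adult, Notch1 was 344 CPM [313, 377] and 365 CPM [337, 395]. At P10 the interval overlapped with that of astrocyte-like cells, and in adult it did not. Microglia-like cells were lower, at 33.6 to 68.8 CPM over the 4 ages, and excitatory neuron-like cells were at 0.9605 to 1.33 CPM.

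Notch2 divided the glia in a way that Notch1 did not. Astrocyte-like cells held the highest level of the compared classes at every age, 291 CPM [272, 311] at P1, 90.9 CPM [85.0, 97.2] at P4, 154 CPM [146, 163] at P10 and 115 CPM [106, 124] in adult. Without marked cells these were 347, 145, 155 and 118 CPM. P1 was thus the highest age by these 2 counts, while the order of P4 and adult depended on the marked cells. The P1 level rests on 147 cells of the cluster also led by radial glia genes. At P1 the log2 ratio of Notch2 in astrocyte-like over excitatory neuron-like cells was 6.24, and 5.06 to 6.49 with the alternatives. OPC-like cells held 6.21, 5.68, 2.71 and 7.55 CPM at the 4 ages, although the same cells matched astrocyte-like cells more closely in Notch1.

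Microglia-like cells also held Notch2, at 63.8 CPM [48.3, 82.6] at P1, 27.3 CPM [16.7, 42.2] at P4, 70.2 CPM [61.0, 80.4] at P10 and 86.1 CPM [77.3, 95.6] in adult. In adult this was 75.0% of the astrocyte level. The P1 and P4 values rest on 34 and 77 cells. Cycling cells held 54.6, 33.5 and 8.56 CPM at P1, P4 and P10, and at P4 they were the class next to astrocyte-like cells. Scrublet-marked cells are counted in these cycling cell values. Fibroblast-like cells held 171 CPM [113, 249] at P10 and 136 CPM [81.7, 212] in adult, from 26 and 25 cells.

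Notch3, the receptor known from pericytes and vascular smooth muscle, was highest in mural-like cells at every age. It was 815 CPM [725, 914] at P1, 1260 CPM [957, 1629] at P4, 1459 CPM [1271, 1668] at P10 and 1079 CPM [988, 1177] in adult, with 28, 15, 45 and 77 cells. The adult mural-like cluster was led by the smooth muscle genes Acta2 and Myh11, whereas the younger ones were led by Abcc9, Mmp9 or Atp13a5, and it also held 12144 CPM of summed endothelial markers. An unnamed adult cluster of 188 cells led by Abcc9, Atp13a5 and Vtn held Notch3 at 656 CPM [599, 718].

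Astrocyte-like cells carried Notch3 as well. The level was 84.1 CPM [74.2, 95.02] at P1, 132 CPM [125, 140] at P4, 158 CPM [149, 166] at P10 and 32.1 CPM [27.6, 37.1] in adult. Without marked cells it was 97.4, 208, 159 and 33.1 CPM, and adult was the lowest age in both. The log2 ratio of adult over P4 was -2.04 [-2.28, -1.82], and -2.65 without marked cells. Leaving out astrocyte-like cells with a UMI of any mural marker gave -1.99, and summed mural markers in the class were 44.5 CPM at P4 and 98.2 CPM in adult.

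OPC-like cells held little Notch3, with 6.21 CPM at P1 and 0.985 CPM [0.203, 2.88] in adult, the latter from 3 UMIs. In endothelial-like clusters Notch3 was 62.9 CPM [50.2, 77.9] at P10 and 22.4 CPM [15.9, 30.8] in adult. These clusters held 4224 and 1380 CPM of summed mural markers. In cells assigned to the endothelial class one by one from their own markers, without clusters, it was 2.32 CPM [0.281, 8.38] at P10 and 37.9 CPM [29.0, 48.8] in adult, so that the direction turned.

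The ligand Dll1 was highest in OPC-like cells at every age. It was 78.1 CPM [68.0, 89.3] at P1, 50.8 CPM [45.1, 56.9] at P4, 44.2 CPM [38.2, 50.9] at P10 and 46.6 CPM [39.3, 54.9] in adult. The intervals of the last 3 ages overlapped. Without Scrublet-marked cells the levels were 89.1, 68.2, 44.5 and 59.8 CPM, and those of P4 and P10 then no longer overlapped. Cycling cells came next at P1, P4 and P10, with 40.2, 48.3 and 13.7 CPM (44.7, 54.5 and 23.1 CPM without marked cells), and at P4 their level was within counting error of that in OPC-like cells. OPC-like cells at P4 held 1374 CPM of summed cycling markers, and leaving out those with a cycling marker UMI moved the log2 ratio of adult over P4 from -0.12 [-0.42, 0.17] to -0.42.

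Outside these classes Dll1 was lower, and in excitatory neuron-like cells its level was lower at each later age. In excitatory neuron-like cells it was 9.60 CPM [9.20, 10] at P1, 5.38 CPM [5.05, 5.72] at P4, 2.27 CPM [2.06, 2.50] at P10 and 0.778 CPM [0.629, 0.952] in adult. In inhibitory neuron-like cells it was 10.2, 8.23, 2.59 and 2.29 CPM, with overlapping intervals at P10 and in adult. The log2 ratio of adult over P4 was -2.79 [-3.11, -2.48] in excitatory and -1.85 [-2.29, -1.42] in inhibitory neuron-like cells. Over whole libraries Dll1 was at 11.7, 7.74, 3.33 and 2.13 CPM in the order of the ages, and excitatory neuron-like cells, being most numerous, supplied 62.6% of its UMIs at P1 and 24.7% in adult.

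Jag1 had a different distribution, with its highest levels in Cajal-Retzius-like and vascular classes and, at P1 and P4, in cycling cells. Cajal-Retzius-like cells, early cells of the cortical surface, held 38.9 CPM [31.1, 48.2] at P1, 57.3 CPM [46.5, 69.8] at P4 and 44.1 CPM [31.2, 60.6] at P10, and no adult cluster had that name. Cycling cells held 30.9 CPM [28.1, 33.8] at P1, where the interval overlapped with that of Cajal-Retzius-like cells and they supplied 31.6% of all Jag1 UMIs, 38.0 CPM [32.8, 43.7] at P4 and 11.2 CPM [8.43, 14.5] at P10. Scrublet-marked cells are counted in these values and held 58.7% of the UMIs of the class at P10. Endothelial-like cells held 79.4 CPM [65.0, 96.0] at P10 and 57.8 CPM [46.9, 70.5] in adult. Mural-like cells held 175 CPM [134, 224] at P1, 109 CPM [35.3, 254] at P4, 95.02 CPM [51.9, 159] at P10 and 226 CPM [185, 273] in adult, with 5 UMIs at P4 and 14 at P10. As given for Notch3, the adult mural-like cluster was led by other genes than the younger ones and held endothelial markers.

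In glia Jag1 was lower and its ages differed between classes. Astrocyte-like cells held 22.2 CPM [17.2, 28.1] at P1, 6.62 CPM [5.09, 8.47] at P4, 7.02 CPM [5.33, 9.08] at P10 and 24.7 CPM [20.8, 29.1] in adult. Without marked cells these were 27.0, 10.05, 7.08 and 25.3 CPM, so P1 and adult were above P4 and P10 in both. The log2 ratio of adult over P4 was 1.90 [1.46, 2.35], and 1.33 without marked cells. OPC-like cells stayed between 12.6 and 18.6 CPM over the 4 ages, with overlapping intervals.

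Hes1, a repressor that Notch induces but that other pathways induce as well, was highest in vascular classes where these were named. Endothelial-like cells held 133 CPM [114, 154] at P10 and 310 CPM [284, 338] in adult, a log2 ratio of 1.22 [0.97, 1.47]. Mural-like cells held 169, 217, 299 and 247 CPM in age order, from 61, 10, 44 and 117 UMIs, above endothelial-like cells at P10, while in adult the intervals overlapped. The adult value is from the cluster with smooth muscle genes and endothelial markers, unlike the younger ones. Astrocyte-like cells held 93.6 CPM [83.05, 105] at P1, 41.3 CPM [37.3, 45.6] at P4, 83.5 CPM [77.4, 90] at P10 and 84.1 CPM [76.7, 92.0] in adult. P4 was the lowest age, and remained so at 60.5 CPM without marked cells against 103, 83.8 and 85.5 CPM. OPC-like cells held 34.3, 39.2, 72.9 and 57.1 CPM.

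Hes5, the target most closely tied to Notch in neural progenitors, had its highest levels in astrocyte-like, OPC-like and cycling cells at every age at which these were compared. In astrocyte-like cells it was 56.1 CPM [48.0, 65.1] at P1, 92.0 CPM [86.0, 98.3] at P4, 136 CPM [128, 144] at P10 and 158 CPM [148, 169] in adult. The level was higher at each later age when all cells were counted. Without marked cells it was 64.4, 143, 137 and 162 CPM, so that P4 and P10 were no longer in that order and the log2 ratio of adult over P4 went from 0.78 [0.65, 0.92] to 0.19.

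In OPC-like cells Hes5 was 86.5 CPM [75.8, 98.2] at P1, 48.4 CPM [42.9, 54.4] at P4, 78.3 CPM [70.3, 87.0] at P10 and 113 CPM [101, 125] in adult. P4 was the lowest age in these cells, also without marked cells, at 63.6 CPM against 98.7, 78.8 and 143 CPM. Cycling cells held 134 CPM [128, 140] at P1, 31.8 CPM [27.1, 37.0] at P4 and 17.1 CPM [13.7, 21.2] at P10, and at P1 they supplied 76.0% of all Hes5 UMIs. Without marked cells they held 149, 47.2 and 21.2 CPM. Endothelial-like cells held 1 UMI at P10 and 3 in adult, although they carried Notch1, Hes1 and Hey1.

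Among members other than Dll1, which was highest in OPC-like cells, Hey1 came nearest in adult to its astrocyte level in excitatory neuron-like cells. Excitatory neuron-like cells held 7.66 CPM [7.31, 8.02] at P1, 14.9 CPM [14.4, 15.5] at P4, 29.1 CPM [28.3, 29.9] at P10 and 69.0 CPM [67.5, 70.4] in adult. Inhibitory neuron-like cells held 3.06 CPM [2.53, 3.68], 6.46 CPM [5.62, 7.39], 13.7 CPM [12.5, 14.8] and 29.8 CPM [27.7, 32.1] in the same order. No intervals overlapped between ages in either class, and excitatory cells were above inhibitory cells at every age. The log2 ratio of adult over P4 was 2.21 [2.14, 2.27] in excitatory and 2.21 [1.98, 2.43] in inhibitory neuron-like cells.

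The clusters of excitatory cells differed in Hey1. In adult, a cluster led by C1ql3 and Neurod6 held 83.7 CPM [81.3, 86.1] and one led by Acvr1c and Wfs1 held 82.6 CPM [78.7, 86.7]. A cluster led by Fezf2 and Crym, markers of subcerebral projection neurons, held 55.1 CPM [51.6, 58.7]. The clusters led by Hs3st4 and Foxp2 and by Lypd1 and Tshz2 held 38.5 CPM [35.7, 41.4] and 29.5 CPM [25.8, 33.6]. The lowest and highest adult clusters thus differed by more than counting error. Clusters with both Crym and Fezf2 but not Hs3st4 among their leading genes held 7.12, 12.02, 33.3 and 55.1 CPM in age order, and whether these clusters are the same kind of cell was not tested.

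In glia Hey1 did not keep that order. Astrocyte-like cells held 68.5 CPM [59.5, 78.4] at P1, 75.9 CPM [70.5, 81.6] at P4, 164 CPM [155, 173] at P10 and 111 CPM [102, 120] in adult. P10 was the highest age, and remained so without marked cells, at 164 CPM against 73.9, 114 and 113 CPM. OPC-like cells held 37.2, 43.9, 79.9 and 74.5 CPM. Mural-like cells held 27.7, 21.7 and 13.6 CPM at P1, P4 and P10, from 10, 1 and 2 UMIs. In adult they held 150 CPM, the highest of the compared classes, in the cluster with endothelial markers named above. Endothelial-like cells held 173 CPM [151, 197] at P10 and 97.4 CPM [83.1, 113] in adult, with most in the subclusters led by Sema3g, a marker of arterial endothelium.

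The Sema3g-led subcluster held Hey1 at 404 CPM [340, 476] at P10 and 238 CPM [193, 291] in adult, against 43.9 to 110 CPM in the other endothelial-like subclusters. At P10 it also held more Jag1, 158 CPM [119, 205] against 50.7 and 51.2 CPM, and more Notch1, 505 CPM [434, 585] against 230 and 337 CPM. In adult its Notch1 was 523 CPM [455, 599] against 331 and 292 CPM, while its Jag1 of 74.4 CPM [50.2, 106] overlapped with the others. At P10 that subcluster also held Notch3 at 195 CPM [152, 247]. As given above, the P10 endothelial-like clusters held mural markers, and endothelial cells assigned one by one held far less Notch3 at P10. Mural-like cells held it at 1459 CPM at that age, and their part in the value of the subcluster was not tested.

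**Figure D2:**
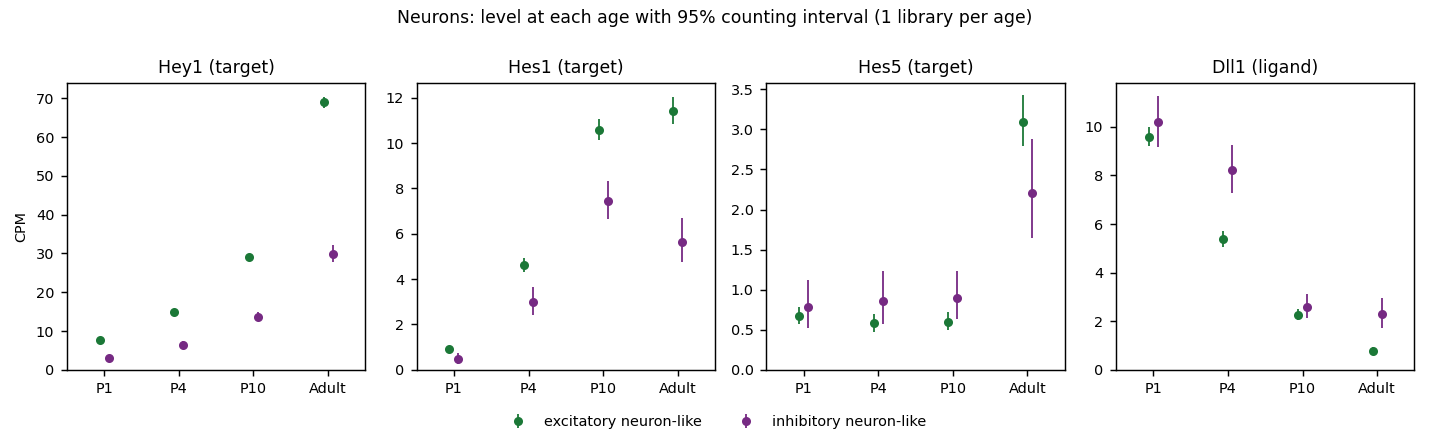
Level (CPM) of Hey1, Hes1, Hes5 and Dll1 at each age in excitatory (green) and inhibitory (purple) neuron-like cells, with 95% counting intervals and 1 library per age. Hey1 in excitatory cells went from 14.9 CPM at P4 to 69.0 CPM in adult while Dll1 went from 5.38 to 0.778 CPM. At P1, the library apart in processing, they stood at 7.66 and 9.60 CPM.

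Low levels in neurons were set beside the level of astrocyte markers in the same cells, and the part that RNA of other cells has in them was not tested. Summed astrocyte markers in excitatory neuron-like cells stood at 1.27%, 1.45%, 2.57% and 2.98% of their astrocyte-like level in age order. Notch1 stood at 0.391%, 0.494%, 0.317% and 0.523%, below the markers at each age. Hes5 stood at 1.21%, 0.632%, 0.441% and 1.96%, also below the markers, though at P1 within counting error of them. Its log2 ratio of adult over P4 was 2.41 [2.10, 2.73]. Notch2 was above the markers at P1 (1.33%, within counting error of them) and P4 (2.17%), and Notch3 at P1 (1.53%). Both were below them at the other ages. The P4 value of Notch2 depended on the processing. Its log2 ratio of astrocyte-like over excitatory neuron-like cells was 5.53 there, and 5.49 to 6.23 with the alternatives. Jag1 stood at 3.82%, 8.62%, 4.66% and 0.939%, above the markers at the first 3 ages and below them in adult.

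Hey1 in excitatory neuron-like cells stood at 11.2%, 19.7%, 17.8% and 62.4% of the astrocyte level, above the markers at every age. Hes1 stood at 0.986% at P1 and at 11.2%, 12.7% and 13.6% at the later ages. In the tercile of excitatory cells lowest in astrocyte markers the log2 ratio of adult over P4 was 2.78 for Hey1, 2.23 for Hes1 and 2.44 for Hes5, against 2.21, 1.31 [1.18, 1.43] and 2.41 in all. In the same cells it was -2.42 for Dll1, -0.37 for Jag1, -1.05 for Notch3, -0.76 for Notch2 and -0.45 for Notch1, against -2.79, -1.30, -1.15, -0.37 and -0.07 in all. Dll1 stood at 69.1% to 98.1% of its level in astrocyte-like cells. At P1 it was at 9.60 CPM in excitatory neuron-like and 9.78 CPM in astrocyte-like cells, and in adult at 0.778 and 0.881 CPM.

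The share of cells with a UMI, each cell thinned to 2000 UMIs, gave the same picture for Hey1. In excitatory neuron-like cells it was 1.16% [0.937, 1.42], 2.17% [1.92, 2.43], 4.82% [4.35, 5.33] and 10.9% [10.1, 11.6] in age order. The shares without thinning were 15.9%, 16.1%, 39.9% and 57.5%, at median depths of 29143, 14443.5, 23973.5 and 18569 UMIs. In microglia-like cells, the class with the lowest Hey1 level at these ages, the thinned share of Hey1 was 1.44% [0.693, 2.63] at P10 and 2.55% [1.69, 3.69] in adult, at median depths of 4524 and 4262 UMIs. Thinning left out cells under 2000 UMIs. These were 0, 25, 2 and 67 excitatory neuron-like, 0, 43, 55 and 146 astrocyte-like and 0, 6, 21 and 1 OPC-like cells in age order. The shares of astrocyte-like cells below therefore lack their shallowest cells.

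Senders and receivers were then set beside each other within the same cells. Of thinned astrocyte-like cells, 68.7% [60.5, 76.1], 63.8% [61.2, 66.4], 67.7% [65.6, 69.8] and 50.2% [47.7, 52.7] in age order had a UMI of any of the 3 receptors. A UMI of either ligand was found in 6.12%, 2.69%, 1.58% and 4.14%. These shares are of different genes and were not compared with each other. Of the same cells, 23.8%, 25.7%, 32.0% and 22.1% had both a receptor and a target UMI. Without Scrublet-marked cells a target UMI was found in 34.1%, 42.3%, 46.6% and 45.6%, and both in 25.4%, 31.4%, 32.1% and 22.3%. Whether receptor and target went together beyond their separate shares was not tested.

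OPC-like cells more often held a ligand UMI than astrocyte-like cells did, although at P1 the intervals overlapped. Of thinned cells, 15.6% [10.2, 22.5], 11.8% [9.62, 14.2], 9.84% [8.12, 11.8] and 12.98% [10.2, 16.2] in age order had a ligand UMI, and 28.6%, 32.9%, 34.4% and 40.5% had a receptor UMI. Both in the same cell were found in 4.76%, 4.70%, 4.31% and 5.34%, and whether they went together beyond their separate shares was not tested. At this depth a cell without a UMI may still carry the mRNA, and the doublets named above are counted in these shares. Without Scrublet-marked cells the receptor share was 73.8%, 72.6%, 67.8% and 50.5% in astrocyte-like cells and the ligand share 17.4%, 13.05%, 9.86% and 14.2% in OPC-like cells. In excitatory neuron-like cells a receptor UMI was found in 1.27%, 0.904%, 0.506% and 0.698%, and a target UMI in 1.31%, 2.85%, 6.55% and 13.03%.

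**Figure D3:**
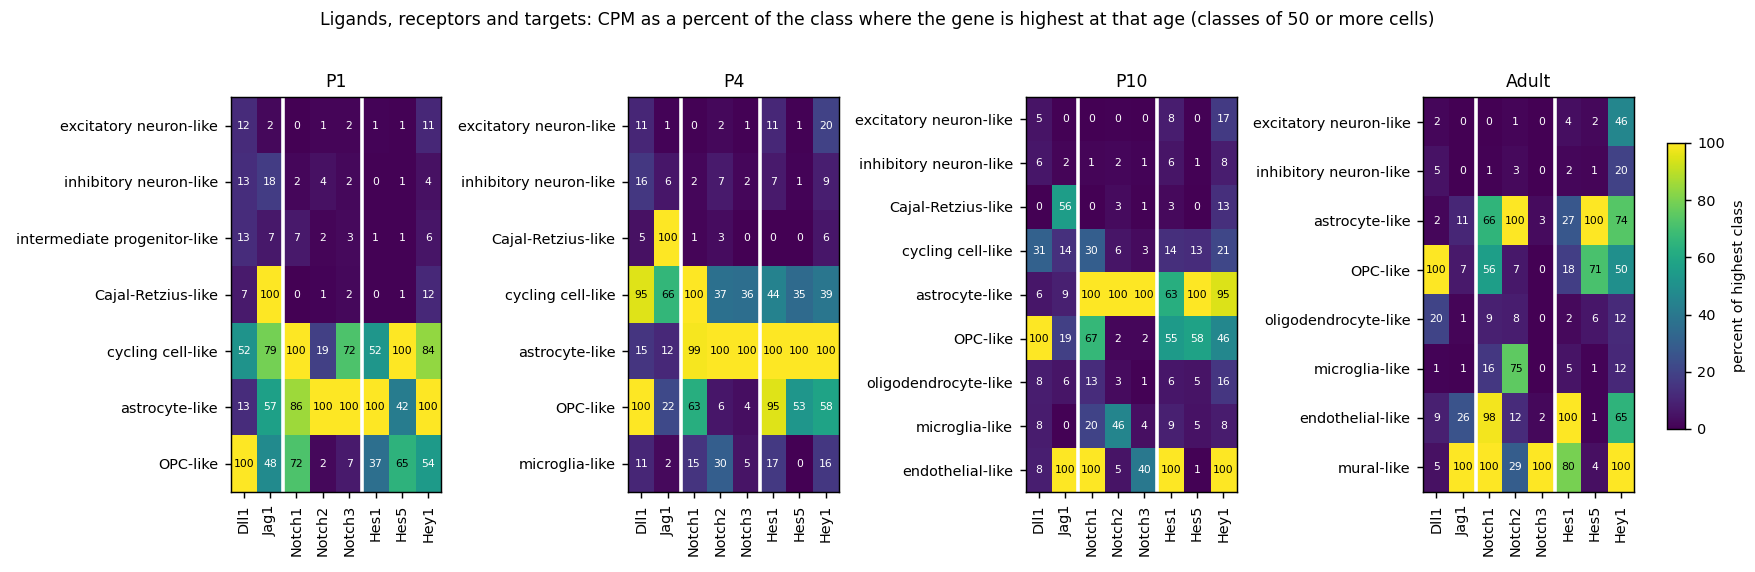
Level of each ligand, receptor and target (columns) in each class of at least 50 cells (rows) as a percent of its highest class at the same age, 1 panel per age. Dll1 was at 100 in OPC-like cells in every panel, and Notch2 was at 100 in astrocyte-like cells in every panel. Hey1 in excitatory neuron-like cells stood at 11.2, 19.7, 16.8 and 46.0 in age order. These percents have different bases, since its highest class was astrocyte-like at P1 and P4, endothelial-like at P10 and mural-like in adult. Mural-like cells reached 50 cells only in adult.

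Against excitatory neuron-like cells, 7 of the 8 members were more than 2-fold higher in astrocyte-like cells at P1, P4 and P10 and 6 in adult, and none was more than 2-fold lower. Without marked cells these counts were the same, against 38.6%, 26.7%, 26.6% and 26.1% of genes higher and 14.7%, 18.8%, 22.5% and 22.1% lower. With all cells, 35.5%, 20.8%, 26.6% and 25.8% of all genes tested were more than 2-fold higher in age order, and 12.6%, 9.45%, 22.3% and 21.5% lower. Of 49 other pathway genes tested (list described below), 26.5%, 24.5%, 34.7% and 22.4% were higher and 16.3%, 4.08%, 16.3% and 18.4% lower. Without marked cells these were 28.6%, 34.7%, 34.7% and 22.4% higher and 20.4%, 16.3%, 16.3% and 18.4% lower. The counts thus describe the members, which were chosen with earlier results of these data known, and not the wider pathway. Among the members the exception at every age was Dll1, with log2 ratios between 0.03 and 0.53. With other classes these passed 2-fold at 3 ages, at 2.10 at P1 (resolution 1.0), and at 1.06 at P4 and -1.95 in adult (classes from the markers of each cell). In adult the other was Hey1, whose log2 ratio was 3.16 [2.95, 3.37], 2.34 [2.22, 2.46], 2.49 [2.40, 2.58] and 0.68 [0.56, 0.80] in age order. Notch1 stayed between 7.58 and 8.30 on the log2 scale.

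Between P4 and adult in astrocyte-like cells, Jag1 and Hes1 were more than 2-fold higher and Dll1 and Notch3 more than 2-fold lower. That is 2 of 8 members in each direction, against 12.8% of all 13332 genes tested higher and 19.6% lower. Without marked cells 1 (Jag1) was higher and the same 2 were lower, against 13.1% and 14.8% of genes. The log2 ratio was 1.03 [0.83, 1.22] for Hes1, which came to 0.50 without marked cells and 0.42 at cluster resolution 1.0 and was then under 2-fold. For Dll1 it was -3.14 [-4.81, -1.85], from 5 UMIs in adult and 74 at P4, and -4.05 from 3 and 47 UMIs without marked cells. The remaining 4 members lay between -0.15 and 0.78, and the median of the 8 was 0.44 against -0.21 over all genes. Without marked cells both medians were -0.16.

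**Figure D4:**
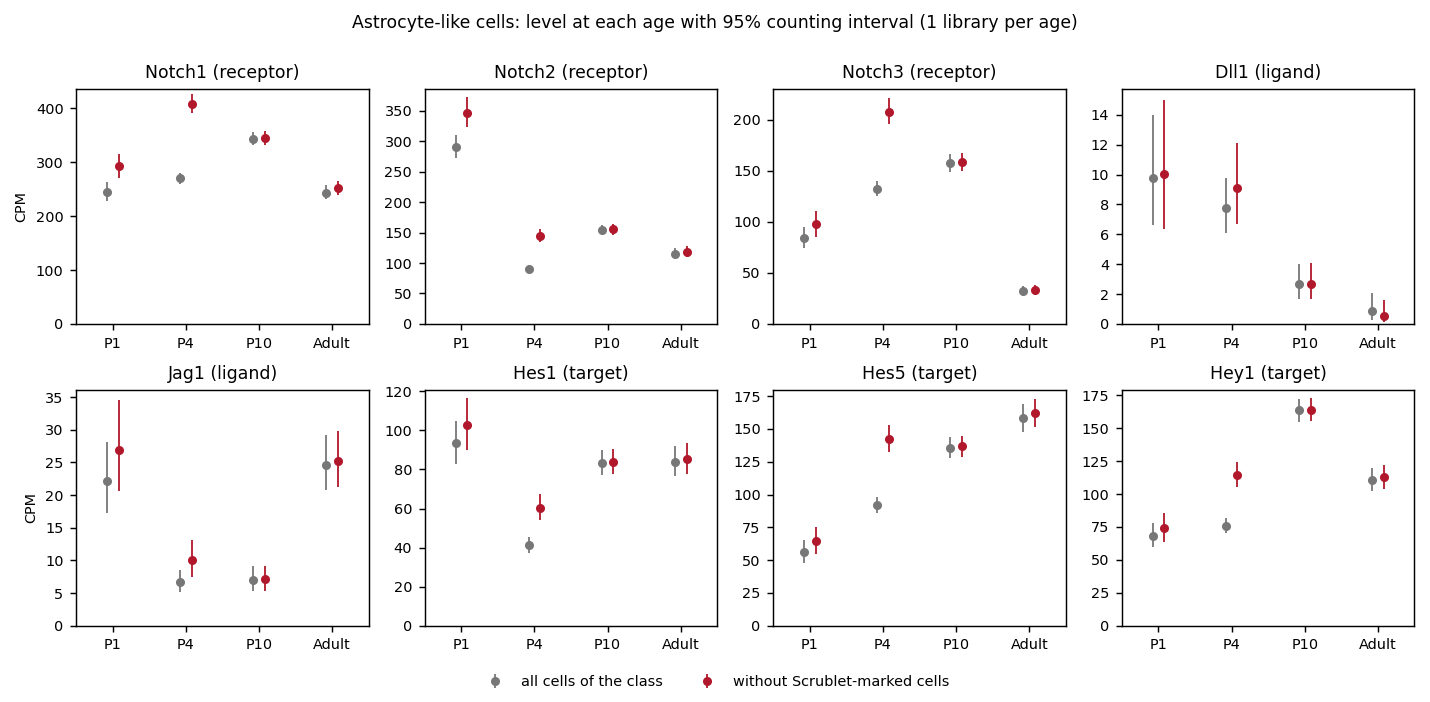
Level (CPM) of each member in astrocyte-like cells at each age with 95% counting intervals, for all cells of the class (grey) and without Scrublet-marked cells (red), 1 library per age. The 2 sets of points stand apart at P4, where Notch1 is at 270 and 409 CPM and Hes5 at 92.0 and 143 CPM, and nearly coincide at P10. At P1 the level without marked cells also lies outside the interval of all cells for Notch1, Notch2 and Notch3.

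In OPC-like cells 1 of 8 members, Hes5, was more than 2-fold higher in adult than at P4, with a log2 ratio of 1.22 [0.99, 1.45], and 1.17 without marked cells. The background was 12.9% of genes higher and 10.9% lower, or 11.6% and 9.4% without marked cells. Only Notch3 was more than 2-fold lower, at -2.29, from 28 UMIs at P4 and 3 in adult, and it came to -0.85 with thinning and turned to 1.03 with classes from the markers of each cell. Hey1 was at 0.76 [0.50, 1.03] and Hes1 at 0.54 [0.25, 0.83]. With classes from the markers of each cell Hey1 came to 0.067, and Notch2 (from 0.41 to 1.99) and Dll1 (from -0.12 to -1.19) passed 2-fold. At P4, 15.5% of OPC-like cells were Scrublet-marked and in adult 11.2%, with 35.9% and 31.4% of the UMIs.

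In excitatory neuron-like cells 3 of 8 members (Hey1, Hes1 and Hes5) were more than 2-fold higher in adult than at P4 and 3 (Dll1, Jag1 and Notch3) more than 2-fold lower, where 19.2% and 22.0% of all genes were, or 19.1% and 22.1% without marked cells, with the same counts of members. Of these, Jag1 and Notch3 were under 1 CPM at both ages. Jag1 went from -1.30 to between -0.78 and -0.37 and was then under 2-fold with clusters at resolution 1.0, the mean over cells, thinning, or the tercile lowest in astrocyte markers. Notch3 went from -1.15 to -0.47 at resolution 1.0 and to -0.94 with classes from the markers of each cell. All 3 targets thus stood on the higher side, with Hes5 below the astrocyte markers as given above, and Notch1 at -0.07 [-0.36, 0.23] on neither.

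Between P10 and adult in endothelial-like cells 6 members had enough UMIs, and 1 (Hes1) was more than 2-fold higher and 1 (Notch3) lower, against 9.91% and 9.73% of all genes. Hey1 was at -0.83 [-1.13, -0.53] and Jag1 at -0.46 [-0.87, -0.05]. Notch1 was at 0.09 [-0.09, 0.27]. The direction of Notch3 turned in cells assigned from their own markers, as given above.

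Of 52 other genes of the pathway, taken from a list of ligands, receptors, enzymes that cut or glycosylate receptors, endocytosis factors, nuclear partners, inhibitors and other Hes and Hey genes, 48 could be tested in astrocyte-like cells. Between P4 and adult 4 were more than 2-fold higher and 8 lower, with a median log2 ratio of -0.14 against -0.21 over all genes. These are 8.33% and 16.7% of the list, below the 12.8% and 19.6% of all genes. Without marked cells 1 of 45 was higher and 6 were lower, 2.22% and 13.3% against 13.1% and 14.8% of all genes. The ligand Dll3 was at 0.881 CPM in adult and 5.47 CPM at P4, a log2 ratio of -2.63 [-4.31, -1.32], and -2.28 without marked cells. Dll4 was at -2.71 [-5.85, -0.69] from 2 UMIs in adult and 22 at P4. The ubiquitin ligase genes Neurl1b and Dtx4 were at -2.38 [-3.13, -1.71] and -2.14 [-2.40, -1.89], and at -1.12 and -1.92 without marked cells.

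The astrocyte genes on the higher side were low in level. The non-canonical ligand Dlk1 was at 3.17 CPM in adult from 18 UMIs and at 3 UMIs at P4, a log2 ratio of 3.33 [1.55, 5.74]. Neurl1a, which promotes ligand endocytosis, was at 1.23 [0.58, 1.90], Heyl, a Hes-related repressor, at 1.16 [0.51, 1.83] and Aph1c, a subunit of the receptor-cutting enzyme, at 1.01 [0.49, 1.53]. Without marked cells Neurl1a was at 2.12, Heyl at 0.81 and Aph1c at 0.67, and Dlk1 and Dll4 had fewer than the 20 UMIs needed.

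In OPC-like cells 45 other pathway genes were tested, 3 were higher and 1 was lower, with a median of -0.07 against -0.04 over all genes. These are 6.67% and 2.22%, below the 12.9% and 10.9% of all genes. Aph1c was at 2.66 [1.90, 3.48], the repressor Hey2 at 1.798 [1.17, 2.45] and the Notch inhibitor Numb at 1.10 [0.76, 1.44], the last at 0.93 without marked cells. Hes6, which opposes Hes1, was at -1.89 [-2.42, -1.40].

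In excitatory neuron-like cells 49 were tested, 6 were higher and 11 lower, with a median of -0.15 against -0.13. These are 12.2% and 22.4%, the first below and the second near the 19.2% and 22.0% of all genes. Numb went from 6.51 CPM at P4 to 41.3 CPM in adult, a log2 ratio of 2.67 [2.58, 2.76]. Dlk1 was at 5.59 [5.16, 6.05], Neurl1a at 2.53 [2.44, 2.61] and Aph1c at 1.51 [1.39, 1.63]. On the lower side Hes6 went from 49.7 to 8.10 CPM, -2.62 [-2.71, -2.52], and the neuronal Notch ligand Dner from 610 to 213 CPM, -1.52 [-1.54, -1.5005]. Dtx4 was at -1.94 [-1.98, -1.90] and Hes7 at -1.505 [-1.83, -1.19], the latter under 3 CPM at both ages.

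In endothelial-like cells, adult over P10, 42 were tested, 1 was higher and 4 lower, which is 2.38% and 9.52% against 9.91% and 9.73% of all genes, so the share on the lower side was near that background. Summed mural markers in the same clusters went from 4224 to 1380 CPM, and their part in the values that follow was not tested. Spen, a corepressor partner of RBPJ, was at 1.42 [0.99, 1.87]. Nrarp, a feedback inhibitor that Notch induces, went from 143 to 27.1 CPM, -2.40 [-2.89, -1.93], and Heyl was at -2.43 [-3.75, -1.29]. Maml3, a coactivator, was at -1.83 [-2.79, -0.95] and Hes6 at -1.19 [-2.21, -0.23]. Hes1 and Nrarp, both targets of the pathway, therefore stood on opposite sides.

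The genes whose pattern was most like that of each member were found by Pearson correlation of log2(CPM + 1) over 31 groups of class and age, among 13941 genes, as a description. The groups share libraries and 1 class can enter at up to 4 ages. For Notch1 these were Pdlim5 (r = 0.961), Zfp36l1 (0.946) and Decr1 (0.946), for Notch2 Dapp1 (0.900), Slc13a3 (0.890) and Pbxip1 (0.876), and for Notch3 Six5 (0.920), Col4a5 (0.919) and Rbpms2 (0.911). For Dll1 they were Adam12 (0.840), Smoc1 (0.837) and Myt1 (0.833), and for Jag1 Zic2 (0.868), Dach1 (0.833) and Ginm1 (0.822). For Hes1 they were Cyr61 (0.937), Hey1 (0.925) and Nqo2 (0.906), for Hes5 Fam69c (0.951), Rfx4 (0.9498) and Cbr3 (0.939), and for Hey1 Hes1 (0.925), Golph3 (0.871) and Nudt12 (0.870). Hes1 and Hey1 were thus the only pair of members in each other's lists.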

How the data were processed

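Single-cell RNA sequencing was done by the authors on 1 library per age (P1, P4, P10 and adult) with BD Rhapsody whole-transcriptome beads. The deposited values are raw UMI counts per gene and cell from the BD Rhapsody WTA Analysis Pipeline. Their headers name version 1.11 at P1, version 1.8 at the other ages and GENCODE M19, and the processing notes name mm10. The methods name version 1.11 without telling ages apart. Total UMIs per library ran from 200198548 to 340724049.

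As in the methods, barcodes under 1000 UMIs, under 1000 genes or over 15% of UMIs from mitochondrial genes were removed, which left 11545, 19014, 15272 and 14087 cells. Each library was clustered on its own (scanpy 1.11.5, leidenalg 0.10.2; 2000 variable genes without the Notch pathway genes, 30 components, 20 neighbours, resolution 0.5). A cluster was named where its marker score reached 1.5 (0.3 for excitatory neurons) with 3 or more markers detected and at most 50% of cells marked by Scrublet. These thresholds were set after the scores and the members' levels per cluster had been seen. Scrublet-marked cells were otherwise kept. Sums over the cells of a class, CPM and exact intervals were computed with scipy 1.17.1. With 1 library per age no test was run, and a gene counted as higher or lower when its ratio passed 2-fold with at least 20 UMIs over both groups. The ratio was checked on simulated data drawn from the same counting model, without doublets or differences between libraries. That check therefore covers the calculation only. Shares of cells used each cell thinned to 2000 UMIs.

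The members and lists were chosen with earlier results of these data known. The genes named were all members, at most 4 other pathway genes per direction and class past 2-fold (adult over P4, or over P10 in endothelial-like cells, which had no cluster at P4), and the 3 genes most like each member. Alternatives were the cluster resolution, removal of Scrublet-marked cells, a stricter cell filter, other scalings, thinning, classes from each cell's own markers and other UMI minimums.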

Additional observations from a re-analysis of the deposited data

Results flagged for a closer look

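For 3 genes the log2 ratio of adult over P4 had opposite signs in 2 cell classes, and with 1 library per age the difference between classes was not tested. For Notch1 it was -0.15 in astrocyte-like and 0.27 in OPC-like cells. For Notch2 it was 0.34 in astrocyte-like and -0.37 in excitatory neuron-like cells, and the astrocyte value came to -0.29 without Scrublet-marked cells, so that the signs were then alike. For Jag1 it was 1.90 in astrocyte-like and -1.30 in excitatory neuron-like cells, the latter from 28 UMIs in adult and 107 at P4.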

How the results depend on the processing

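Among the log2 ratios of adult over P4, those in astrocyte-like cells moved most often with the processing, while the share of cells with a UMI moved without thinning in 103 of 112 comparisons. Of 64 alternative log2 ratios of adult over P4 in these cells 29 kept to the value reported, 27 moved and 8 reversed, against 47, 17 and 0 in excitatory neuron-like and 56, 7 and 1 in OPC-like cells. In astrocyte-like cells, clusters at resolution 1.0, removal of Scrublet-marked cells, the mean over cells of CPM per cell, thinning to 2000 UMIs and classes from the markers of each cell gave, in that order, -0.78, -0.70, -0.49, -0.48 and -0.72 for Notch1. The same 5 gave -0.36, -0.29, -0.13, -0.15 and -0.33 for Notch2, all reversed, and -2.71, -2.65, -2.35, -2.29 and -2.63 for Notch3. They gave 0.42, 0.50, 0.66, 0.82 and 0.51 for Hes1, 0.10, 0.19, 0.43, 0.34 and 0.22 for Hes5, and -0.073, -0.023, 0.27, 0.32 and -0.017 for Hey1, of which the negative values are reversals. For Jag1 all but thinning moved it, to 1.26, 1.33, 1.37 and 1.33, and Dll1 came to -5.82 with classes from the markers of each cell. With those classes Notch3 reversed to 1.03 in OPC-like cells, adult over P4, and to 4.03 in endothelial-like cells, adult over P10, the latter from 2 UMIs at P10. The cause was not tested.

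With at least 100 UMIs over both groups 1 other pathway gene was higher and 5 were lower in astrocyte-like cells, and 1 was higher in OPC-like cells. With at least 1 UMI in each group 5 were higher and 3 lower in OPC-like cells. Fewer or more genes were then tested. Of 224 alternative log2 ratios of astrocyte-like over excitatory neuron-like cells, 156 kept to the value reported, 68 moved and 0 reversed. At P1 Hes1 went from 6.66 to as high as 8.84 and Notch2 from 6.24 to as low as 5.06. Of 222 alternative levels of a member in its highest class, 134 kept to the value reported and 88 moved.

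Leaving out cells with mural markers, cycling markers or astrocyte markers, and all alternatives for endothelial-like cells, were chosen after seeing the data. No paired analysis was possible because each age has 1 sample, and leaving out a replicate was not possible for the same reason. The ratio of adult over P4 in endothelial-like clusters could not be computed because no P4 cluster had that name. Levels under a few CPM rest on few UMIs, and a level of 0 was not detectable rather than absent at this depth.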

Other observations

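In cells assigned to the endothelial class from their own markers, chosen after seeing the data, 413 adult and 68 P4 cells could be set side by side. Hes1 was at 310 CPM in adult and 159 CPM at P4, a log2 ratio of 0.97 [0.60, 1.35]. Notch1 was at -0.02 [-0.28, 0.25] and Hey1 at -0.05 [-0.55, 0.46], with intervals that held 0. Jag1 was at -0.58 [-1.15, 0.01]. Notch3 was at 1.72 [0.42, 3.398], from 60 UMIs in adult and 5 at P4, and Notch2 at 1.01 [-0.72, 3.397], from 22 and 3. Dll1 had 7 UMIs in adult and 1 at P4, and Hes5 had 5 and 0.

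At P10 an unnamed cluster of 69 cells led by Sfrp1, Thbs4 and Id4 held Notch2 at 345 CPM [269.6, 435], Notch1 at 301 CPM and Hes5 at 87.5 CPM, with 0 UMIs of Dll1.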
